A study of Arabidopsis thaliana with 9 samples.

Results

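Roots of Arabidopsis seedlings fixed in flight, after the parabola of an F-104 jet, were set against roots fixed on the ground during the same flight. The comparison used 6 of the 9 arrays of the study, 3 from last-actuated roots and 3 from ground roots, and all 16722 of 38408 probe sets that the platform annotation paired with exactly 1 gene. For each of these the difference of the mean log2 values, last-actuated minus ground, was taken.

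Every group, the ground roots included, carried the pCaMV35S:14-3-3κ:GFP transgene in the Wassilewskija (WS) background, so the effects of overexpressing 14-3-3κ, a regulatory protein that binds phosphorylated partners, could not be separated from the response. The seedlings were 10 days old, had grown in continuous light, and stood in sealed fixation tubes of the Kennedy Space Center, which on actuation flood the plants with RNAlater, an RNA-preserving fixative. The last-actuated tube flew in a flight suit pocket and was fixed after a climb at 4 g of about 30 s and a descent with about 10 s of microgravity. The design text places in-flight fixation about 1.5 min into level flight, without separating the tubes. For a further in-flight tube, called first-actuated, the protocol instead places fixation during low-altitude acceleration. The protocol was followed here for that tube. A team member held the ground tube. The 3 arrays of a group came from roots of a single tube, so tube and condition cannot be told apart and the p-values reflect only how pools of roots within 1 tube differ.

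Of 16 root marker genes only EXPA7, a root hair expansin gene, had a named probe set, at a mean log2 level of 5.30 in last-actuated and 5.31 in ground roots. Of 14 shoot markers, 2 were measured. RCA, the gene of Rubisco activase, averaged 8.34 in last-actuated and 8.08 in ground roots, and LHB1B2, a light-harvesting protein gene, averaged 5.94 in last-actuated and 7.0 in ground roots, so signal of shoot-type genes was present in both groups. The array medians were 3.32, 3.3 and 3.27 in last-actuated and 3.33, 3.35 and 3.35 in ground roots. Over all probe sets, arrays of the last-actuated group correlated with each other at 0.9889 to 0.9895 and ground arrays at 0.9873 to 0.9883, while pairs across the groups correlated at 0.9838 to 0.9868. Because whole roots were measured in bulk, fewer cells of a type and less RNA per cell cannot be told apart.

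Several of the systems described below deal with protein damage and with hormones. In the cytosol, chaperones and their co-chaperones fold proteins and rescue unfolded ones, and in the endoplasmic reticulum (ER) a separate set of chaperones serves secreted proteins, with a degradation route for those that fail to fold. Auxin directs root growth and bending, and GH3 enzymes limit free auxin by joining it to amino acids. WRKY factors, defensin-like peptides and U-box ubiquitin ligases belong to immune signalling, which in roots also responds to wounding and mechanical stimulation.

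A probe set is called here when its Benjamini-Hochberg adjusted p from limma was under 0.05 in a fit of all 9 arrays. Of the 16722 probe sets, 303 were called (1.81%). Of these, 157 were higher (0.939%) and 146 lower (0.873%) in last-actuated roots. A change of at least 2-fold was called for 63 (0.377%), of which 44 were higher (0.263%) and 19 lower (0.114%). At an unadjusted p under 0.05 there were 2174 of the 16722 probe sets. For all 303 the last-actuated arrays lay wholly above or wholly below the ground arrays, as they did for 16.6% of all probe sets. Absence of overlap, where given below for a called gene, therefore sets it apart from no other call. The median change over all 16722 was 0.0 on the log2 scale, and 8489 of them had a positive difference.

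Calls were concentrated among bright probe sets. A probe set counted as bright when its mean over the 9 arrays was at or above 3.3, the median over the whole table, and as dim below it. Of 8526 bright probe sets, 281 were called (3.3%), 152 higher (1.78%) and 129 lower (1.51%). Of 8196 dim ones, 22 were called (0.268%), 5 higher (0.061%) and 17 lower (0.207%). Called changes of at least 2-fold numbered 58 among bright (0.68%) and 5 among dim probe sets (0.061%). The share without overlap was 23% among bright and 10% among dim probe sets. Brightness orders probe sets and not transcripts, since probes differ in affinity.

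In 4 classes cut at the quartiles of the level, 2.25, 3.3 and 5.95, the share called was 0.0797%, 0.429%, 2.21% and 4.57% from the dimmest to the brightest. The dimmest class held 2 higher and 1 lower calls, the next 3 and 16, the next 38 and 64, and the brightest 114 and 65. When each array was first centred on its median, the dimmest class had 5 higher and 0 lower, the next 7 and 11, the next 48 and 58 and the brightest 128 and 60, so the excess of lower calls in the second class shrank. The median standard deviation (SD) between arrays of the last-actuated group was 0.09, 0.12, 0.15 and 0.12 over the 4 classes, against 0.09, 0.13, 0.16 and 0.12 in the ground group. In both groups the spread was smallest in the dimmest class and largest in the class from 3.3 to 5.95. The sizes of change differed more, with the level exceeded by the top percent of absolute changes at 0.35, 0.55, 0.93 and 0.98.

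**Figure D1:**
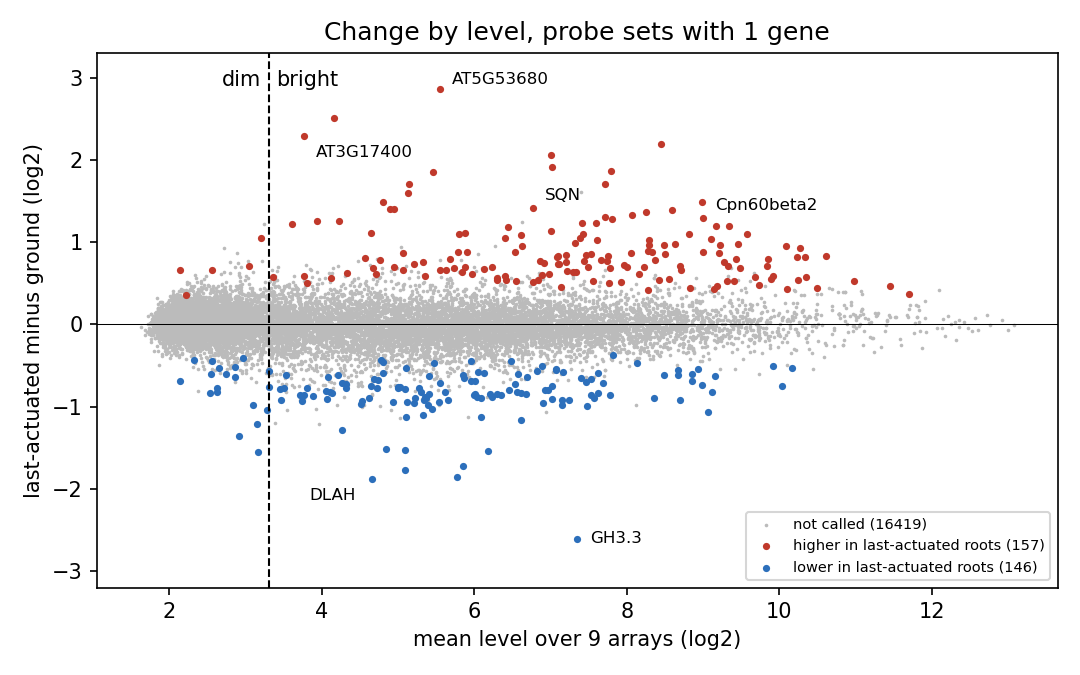
Each point is a probe set paired with 1 gene, with its mean log2 level over 9 arrays on the x axis and the last-actuated minus ground log2 difference on the y axis; the dashed line at 3.3 parts dim from bright. The 157 higher (red) and 146 lower (blue) calls lie mostly to the right of the line, with GH3.3 lowest at -2.61 and AT5G53680 highest at 2.87.

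**Figure D2:**
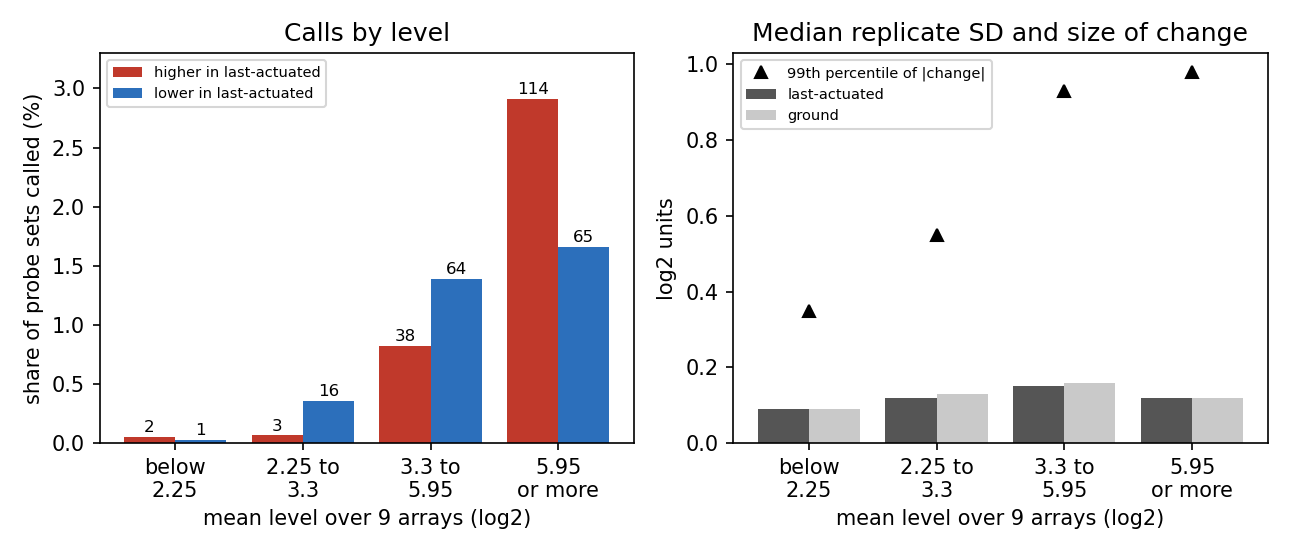
Left, the share of probe sets called higher (red) or lower (blue) in last-actuated roots in 4 classes of mean log2 level, with the number called above each bar; right, the median SD between the 3 arrays of last-actuated (dark) and ground roots (light) and the absolute log2 change exceeded by the top percent of probe sets (triangles). Calls rise from 0.0797% in the dimmest to 4.57% in the brightest class while the median SD stays between 0.09 and 0.16.

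Bright probe sets called higher had a median change of 0.79 (0.37 to 2.87), at a median level of 7.93 in last-actuated and 6.96 in ground roots. Those called lower had a median change of -0.80 (-2.61 to -0.37), at 5.35 in last-actuated and 6.30 in ground roots. Among bright sets, 3 of the higher calls had a ground mean below 3.3 and 9 of the lower calls had a last-actuated mean below it. All 5 dim sets called higher had dim ground means, and all 17 called lower had dim last-actuated means, 11 of them with a dim ground mean as well. Signal over background was not known for these, so the sizes of the dim changes are less certain than those of the bright ones.

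Only 47 of the 303 called probe sets belonged to genes with a symbol or descriptive name in the annotation, out of 1965 such genes among all probe sets, and 256 had a locus identifier alone. Function is therefore described for annotated genes, in 49 gene lists that together held 953 genes, of which 41 were called (4.30%), 21 higher and 20 lower. The lists were written with the calls in view, so neither this share nor the count in any single list is independent of them. Of all 16722 probe sets 1.81% were called, and of the bright ones 3.3%. Loci without a symbol or name are given by locus alone. They were not sorted by function, so any genes of the systems described here among them are not counted. Uncalled list members are named as examples, chosen with their values in view, apart from the tissue markers and the member of smallest p in each list without a call.

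In the 3 lists of protein folding genes, drawn up with the calls in view, 8 of 33 genes were called (24.2%), all higher in last-actuated roots. The share over all probe sets was 1.81%, and because of how the lists were drawn up the difference was not tested. Among 16 heat shock proteins and co-chaperones, 3 were called higher and 0 lower, 13 had a positive difference, and the median change was 0.26. SQN, the cyclophilin-type co-chaperone of HSP90 that is also needed for microRNA function, had log2 levels of 7.53, 7.33 and 7.65 in last-actuated arrays, against 6.14, 5.94 and 6.19 in ground arrays. The groups were far apart, and the change was 1.41 ± 0.11 (limma's SE throughout, n = 3 per group), a 2.66-fold increase (adjusted p = 0.000198). ATHSP22.0, which encodes an ER-located small heat shock protein, was at 9.15, 9.08 and 9.14 in last-actuated, against 8.22, 8.13 and 8.08 in ground arrays (0.98 ± 0.08, adjusted p = 0.000202). HSA32, whose product sustains acquired heat tolerance, was at 10.28, 10.15 and 10.34 in last-actuated, against 9.46, 9.72 and 9.45 in ground arrays (0.71 ± 0.10, adjusted p = 0.006). Neither gene had overlapping arrays. All 3 also exceeded their level in first-actuated roots, by 0.80 for SQN, 0.47 for ATHSP22.0 and 0.53 for HSA32 (adjusted p = 0.00207, 0.00603 and 0.0129). In that comparison 6.72% of all probe sets were called, and 4.87% between first-actuated and ground roots. In the latter, SQN and ATHSP22.0 were called higher too (0.61 and 0.51, adjusted p = 0.0109 and 0.00561). HSA32 was not called there (0.18, adjusted p = 0.399).

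The other 13 genes of the list of heat shock proteins and co-chaperones did not pass. The HSP70 exchange factor gene Fes1B, a dim probe set, differed by 0.70 ± 0.16 (adjusted p = 0.0701) and the HSP70-HSP90 organizing protein genes Hop3 and Hop1 by 0.37 and -0.20. Hsp70-2 differed by 0.14 ± 0.16. In the chloroplast, whose chaperonins fold imported and locally made proteins in a barrel-shaped chamber, Cpn60beta2 stood at 9.52, 9.52 and 9.55 in last-actuated arrays, against 8.35, 8.17 and 8.21 in ground arrays. This was a 2.45-fold increase (1.29 ± 0.10, adjusted p = 0.00018). Cpn60beta2 was also called higher in first-actuated than in ground roots (0.97, adjusted p = 0.000557). Its difference between the in-flight groups was not called (0.32, adjusted p = 0.0867). Its sister genes Cpn60beta3 and Cpn60beta4 differed by 0.37 and 0.05 and were not called, leaving 1 of 3 subunit genes called. The calls of SQN, ATHSP22.0, HSA32 and Cpn60beta2 held in all 15 alternative fits.

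Of 14 genes of ER folding and degradation, 4 were called higher and 0 lower, with a median change of 0.20 and 10 positive differences. DER1, a derlin gene of the pore through which misfolded proteins leave the ER, was at 10.64, 10.68 and 10.69 in last-actuated arrays, against 9.85, 9.97 and 9.71 in ground arrays (0.83 ± 0.09, adjusted p = 0.00118). ATERDJ3B, a DnaJ partner of the ER chaperone BiP, was at 8.39, 8.11 and 8.42 in last-actuated, against 7.46, 7.71 and 7.69 in ground arrays (0.68 ± 0.13, adjusted p = 0.0314). BZIP17, a membrane-bound transcription factor that is released by proteolysis under ER and salt stress, was at 7.50, 7.52 and 7.27 in last-actuated, against 7.05, 7.01 and 6.87 in ground arrays (0.45 ± 0.10, adjusted p = 0.0473). No array overlapped between the groups in these genes. BIP1, an ER chaperone of the HSP70 family, was the dim member, at 3.56, 3.23 and 3.3 in last-actuated and 2.88, 2.63 and 2.45 in ground arrays (0.71 ± 0.13, adjusted p = 0.027). BIP1 has close copies in the genome that its probes may not separate.

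Against first-actuated roots, ATERDJ3B was higher by 0.90, DER1 by 0.49 and BZIP17 by 0.45 (adjusted p = 0.00306, 0.00974 and 0.0209). BIP1 was not called there (0.24, adjusted p = 0.389). Between first-actuated and ground roots, ATERDJ3B, DER1, BZIP17 and BIP1 were all uncalled. The related transcription factor genes BZIP60 and BZIP28 differed from ground by 0.27 ± 0.18 and 0.00 ± 0.09, the site-1 protease gene S1P by -0.31 ± 0.17, the calreticulin gene CRT1b by 0.11 ± 0.10, and the other derlin genes DER2.1 and DER2.2 by 0.24 and -0.28. None of these was called. DER1 was called in every alternative. ATERDJ3B missed the threshold whichever array was left out, apart from last-actuated replicate 2 (adjusted p = 0.0699 to 0.135), BZIP17 whichever was left out, apart from last-actuated replicate 3 (0.0903 to 0.156), and BIP1 whichever was left out, apart from ground replicate 1 (0.06 to 0.0937).

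**Figure D3:**
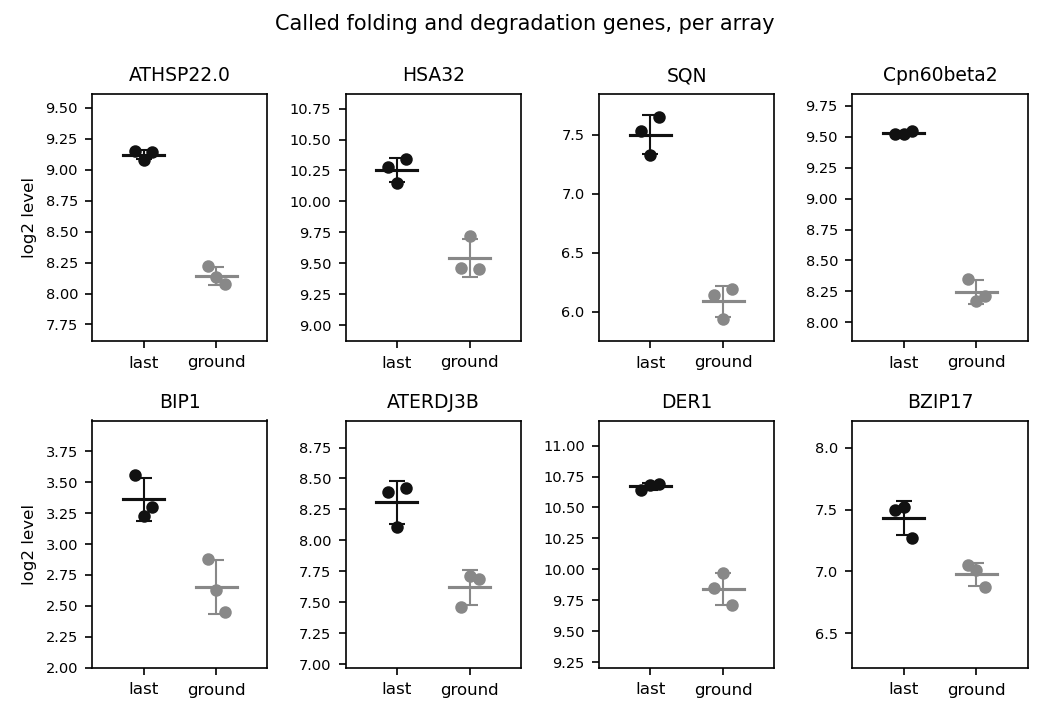
Log2 level of 8 called folding and degradation genes in each array of last-actuated (black, left) and ground roots (grey, right), with the group mean and its SD as bars; each panel has its own y axis of at least 2 log2 units. The last-actuated arrays lie above all ground arrays in every panel, from 0.45 for BZIP17 to 1.41 for SQN between the means.

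The lists of protein turnover held 3 calls among 93 genes (3.23%) and those of secretion 2 among 52 (3.85%), all lower in last-actuated roots. Both sets of lists held bright and dim genes. The share called was 1.81% over all probe sets and 3.3% over bright ones. Outside these lists, the endoplasmic reticulum degradation gene DER1 was called higher, and so was CUL4, a ubiquitin ligase scaffold gene on no list (0.71 ± 0.08, adjusted p = 0.00197), named after its value was seen. PUB24, a U-box ubiquitin ligase that dampens immune responses together with PUB22 and PUB23, was at 7.01, 6.57 and 6.58 in last-actuated arrays, against 7.54, 7.73 and 7.39 in ground arrays (-0.83 ± 0.13, adjusted p = 0.0119). It was the only one called of 10 U-box genes, and PUB22 and PUB23 differed by 0.10 and 0.13. UBP22, a protease that removes ubiquitin from histone H2B, fell by 0.62 ± 0.10 and was the only one called of 12 ubiquitin-specific proteases. GAMMA-VPE, a vacuolar protease that processes other vacuolar proteins, fell by 0.54 ± 0.11 (adjusted p = 0.039), the only one called of 3. Of 16 PRA1 family genes, which encode small membrane proteins that bind Rab GTPases between ER and Golgi, 2 were called lower and 0 higher, with a median change of -0.19 and 12 negative differences. PRA1.B6 was at 7.50, 7.31 and 6.83 in last-actuated, against 8.11, 8.33 and 7.87 in ground arrays (-0.89 ± 0.17, adjusted p = 0.0278), and PRA1.B5 fell by 0.78 ± 0.16 (adjusted p = 0.0353). Neither overlapped between groups.

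These calls rested on the full set of arrays. PUB24 missed the threshold without last-actuated replicate 2 or 3 or ground replicate 2 (adjusted p = 0.0518 to 0.061), and so did UBP22 (0.0555 to 0.064). GAMMA-VPE missed it whichever array was left out (0.052 to 0.152), PRA1.B5 whichever was left out, apart from last-actuated replicate 1 (0.0718 to 0.131), and PRA1.B6 without 4 of the arrays, the exceptions being ground replicate 3 and last-actuated replicate 1 (0.0645 to 0.1).

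Among hormone genes, the largest decrease of any bright probe set was that of GH3.3. Its levels were 6.45, 6.19 and 5.93 in last-actuated arrays, against 9.24, 8.72 and 8.44 in ground arrays. The change of -2.61 ± 0.22 left GH3.3 at 0.164 of its ground level (adjusted p = 0.000299), and the gene was lower than in first-actuated roots as well, by log2 -0.88 (adjusted p = 0.0445). First-actuated roots also had a called decrease of GH3.3 against ground roots (log2 -1.73, adjusted p = 0.00198). Of 22 genes of auxin response and synthesis, 9 had an unadjusted p under 0.05, as did 2174 of all 16722 probe sets. The median change of the 22 was -0.04, and GH3.3 alone was called. Its GH3 relatives WES1 and GH3.17, which also conjugate auxin, differed by -0.42 ± 0.13 and -0.32 ± 0.11, LBD29, a lateral root transcription factor gene, by -0.66 ± 0.18, and HAT2, an auxin-induced homeodomain gene, by 0.51 ± 0.13. Of the 22, 13 were dim.

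DLAH, a lipase gene of the family that includes the jasmonate-forming lipase DAD1, was at 3.31, 2.96 and 3.65 in last-actuated arrays, against 4.96, 5.64 and 4.96 in ground arrays (-1.88 ± 0.26, adjusted p = 0.00513). None of the other 7 jasmonate genes was called. DLAH was lower than in first-actuated roots too, by log2 -2.16 (adjusted p = 0.00106). The jasmonate synthesis gene OPCL1 differed by -0.46 ± 0.14, and the transcription factor genes MYC3 and MYC4 by 0.13 and 0.01. Of 20 genes of abscisic acid, cold and dehydration, 2 were called higher and 0 lower, with a median change of 0.07. KIN1, a small hydrophilic protein gene induced by cold and abscisic acid, was at 5.90, 5.86 and 5.85 in last-actuated, against 5.26, 4.86 and 4.85 in ground arrays (0.88 ± 0.12, adjusted p = 0.0038). KIN1 was lower than in first-actuated roots, by log2 -0.63 (adjusted p = 0.00974). ABR1, an ERF factor gene known as a repressor of abscisic acid responses, rose by 0.48 ± 0.10 (adjusted p = 0.0485), while COR47, COR15A and LEA18, protective protein genes of cold and drying, differed by -0.04, 0.16 and -0.72. GH3.3, DLAH and KIN1 were called in every alternative, whereas ABR1 missed the threshold whichever array was left out (0.0788 to 0.17).

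Immune genes changed in both directions. WRKY29 was at 9.93, 9.72 and 10.06 in last-actuated arrays, against 8.72, 8.95 and 8.95 in ground arrays (1.03 ± 0.13, adjusted p = 0.00254), and WRKY22 was at 5.88, 5.92 and 6.34 in last-actuated, against 5.18, 5.32 and 5.24 in ground arrays (0.80 ± 0.12, adjusted p = 0.00751). Both are transcription factor genes that act below the MAP kinase cascade of flagellin perception, and neither had overlapping arrays. They were the only ones called of 7 WRKY genes (median change 0.11), with WRKY6 at 0.16 ± 0.10 and the dim WRKY41 at -0.53 ± 0.16. WRKY29 was also higher than in first-actuated roots, by 1.38 (adjusted p = 0.000235). WRKY22 was not called in that comparison (0.30, adjusted p = 0.2). It was called higher in first-actuated than in ground roots as well (0.50, adjusted p = 0.0438). The calls of WRKY29 and WRKY22 against ground held in every alternative.

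PDF1.4, a defensin gene, was at 9.79, 9.81 and 10.09 in last-actuated arrays, against 8.76, 8.31 and 9.02 in ground arrays (1.20 ± 0.17, adjusted p = 0.00494). PDF1.4 was called higher in first-actuated than in ground roots too (0.72, adjusted p = 0.0348). Its difference between the in-flight groups was not called (0.47, adjusted p = 0.14). It was the only one called of 8 PDF genes, among which PDF2.1 differed by -1.14 ± 0.34 without passing (adjusted p = 0.154). Among 79 defensin-like genes, which include PDF1.4 and of which 68 were dim, 3 were called higher and 0 lower, with a median change of -0.01. The others were SCRL26, of the SCR-like cysteine-rich peptides, with a rise of 1.26 ± 0.26, and LCR35, of the low-molecular-weight cysteine-rich peptides, with a rise of 1.22 ± 0.24 (adjusted p = 0.0369 and 0.0309). LCR35 missed the threshold whichever array was left out, apart from ground replicate 2 (0.0676 to 0.121), and SCRL26 without 4 of the arrays, the exceptions being ground replicate 3 and last-actuated replicate 1 (0.108 to 0.154).

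In the other direction, GRX480, a glutaredoxin that links salicylic acid to jasmonate signalling, was at 5.08, 4.66 and 5.00 in last-actuated arrays, against 5.83, 6.33 and 5.68 in ground arrays (-1.03 ± 0.17, adjusted p = 0.0134). No other gene was called of the 12 immune receptor and signalling genes on the list. Loci without a symbol or name were not sorted into it, so immune genes among them were not counted. Lectins bind sugars, and 2 of 6 lectin genes were called lower. JAL22, a jacalin-related lectin of the complex around the glucosidase PYK10, was at 6.51, 6.47 and 6.71 in last-actuated, against 7.44, 7.61 and 7.56 in ground arrays (-0.97 ± 0.09, adjusted p = 0.000513), with no overlap. It was the only one called of 10 genes of that complex and of ER bodies, the glucosidase stores of root cells. PYK10 itself differed by -0.19 ± 0.09 and NAI2, needed to form ER bodies, by 0.04 ± 0.10. EULS3, a lectin of nucleus and cytoplasm, fell by 0.54 ± 0.10 (adjusted p = 0.0225). JAL22 was called in every alternative. EULS3 missed the threshold whichever array was left out, apart from last-actuated replicate 1 (0.0509 to 0.0858), and GRX480 without last-actuated replicate 2 or 3 (0.0501 to 0.065).

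Few genes of metabolic and wall families were called, with 2 calls in the UGT list and 0 or 1 in each of the others. UGT73B3, a glycosyltransferase that attaches glucose to flavonols and defence compounds, was at 4.54, 4.59 and 4.24 in last-actuated arrays, against 5.27, 5.93 and 5.54 in ground arrays (-1.12 ± 0.16, adjusted p = 0.00539). UGT72E1, which glucosylates lignin precursors, fell by 0.86 ± 0.17 (adjusted p = 0.0354). These were 2 of 55 UGT genes, with 0 called higher, 37 negative differences and a median of -0.03. The share called was 1.81% over all probe sets and 3.3% over bright ones. Of all 16722 probe sets, 8489 had a positive difference. BGLU28, a beta-glucosidase induced by sulphur shortage, was at 5.88, 6.32 and 6.05 in last-actuated, against 4.48, 4.71 and 4.6 in ground arrays (1.49 ± 0.25, adjusted p = 0.0136). BGLU28 alone was called among 24 BGLU genes, and stood 2.37 above its first-actuated level (adjusted p = 0.000474). GSTF3, a glutathione transferase gene with a near-identical neighbour in sequence, rose by 0.73 ± 0.15, the only one called of 15. Of 24 expansin genes, whose products loosen cell walls, EXPA20 alone was called, at 5.99, 5.50 and 5.33 in last-actuated and 6.46, 6.59 and 6.46 in ground arrays (-0.90 ± 0.15, adjusted p = 0.0126). A dimmer probe set of EXPA20 was not called, and EXPB3 differed by -1.13 ± 0.33 (adjusted p = 0.147).

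Of these, UGT73B3 alone was called in every alternative. BGLU28 missed the threshold without 4 of the arrays, the exceptions being ground replicate 2 and last-actuated replicate 1 (0.0546 to 0.0751), GSTF3 without 4, the exceptions being ground replicate 1 and last-actuated replicate 3 (0.113 to 0.128), UGT72E1 whichever was left out, apart from last-actuated replicate 1 (0.0765 to 0.148), and EXPA20 without ground replicate 2 or last-actuated replicate 2 (0.0577 to 0.0667).

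**Figure D4:**
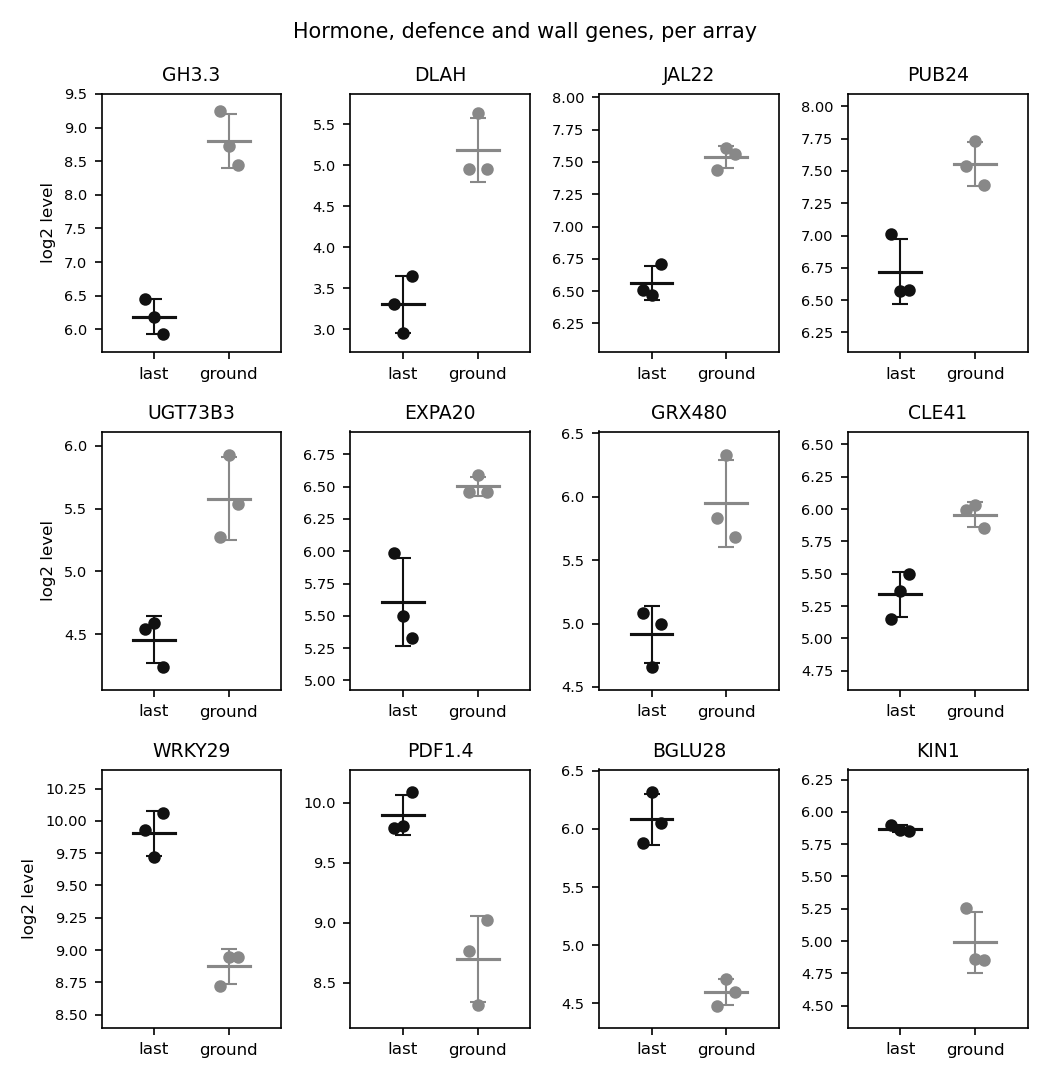
Log2 level of 12 called genes of hormones, defence, metabolism, the wall and peptide signals in each array of last-actuated (black, left) and ground roots (grey, right), with the group mean and its SD as bars; each panel has its own y axis of at least 2 log2 units. The top and middle rows are lower in last-actuated roots, by up to 2.61 for GH3.3, and the bottom row is higher, by 0.88 for KIN1 to 1.49 for BGLU28.

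Photosynthesis genes of the nucleus were lower where they were called. Of 32 measured, 3 were called lower and 0 higher, 20 had a negative difference, 15 had an unadjusted p under 0.05, and the median change was -0.10. Of all 16722 probe sets, 8489 had a positive difference and 2174 an unadjusted p under 0.05. The share called was 1.81% over all of them and 3.3% over bright ones. HPR, the peroxisomal hydroxypyruvate reductase of photorespiration, was at 3.81, 3.18 and 3.81 in last-actuated arrays, against 4.25, 4.80 and 4.49 in ground arrays (-0.91 ± 0.18, adjusted p = 0.0327). The chloroplast malate dehydrogenase gene NADP-MDH (AT5G58330) fell by 0.78 ± 0.13 and LHCB4.1, an antenna protein gene of photosystem II, fell by 0.47 ± 0.09 (adjusted p = 0.0164 and 0.0296). PSAE-1 of photosystem I and the Calvin cycle gene PRK, a dim probe set, differed by -0.66 and -0.81 without passing. Of 9 tetrapyrrole enzymes, which make haem and chlorophyll, hemf2 was called, a dim probe set of a coproporphyrinogen oxidase gene at 2.76, 2.59 and 2.61 in last-actuated and 3.14, 3.14 and 3.24 in ground arrays (-0.52 ± 0.10, adjusted p = 0.0239).

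Both shoot markers that were measured missed the threshold. LHB1B2 was at 5.71, 6.15 and 5.95 in last-actuated arrays, against 7.22, 6.89 and 6.88 in ground arrays (-1.06 ± 0.28, adjusted p = 0.102). RCA was at 8.42, 8.27 and 8.32 in last-actuated, against 8.06, 8.17 and 8.0 in ground arrays, in the opposite direction (0.26 ± 0.09, adjusted p = 0.224). Neither marker overlapped between the groups, as was so for 16.6% of all probe sets and 23% of bright ones. The part of shoot-type tissue in the photosynthesis results was not tested. All 63 chloroplast-encoded genes were bright, 0 were called by limma, 8 had an unadjusted p under 0.05, and their median change was 0.09 with 45 positive differences. LHCB4.1 missed the threshold whichever array was left out (0.0577 to 0.111) and when arrays were centred on their medians (0.0525). HPR missed it whichever array was left out, apart from ground replicate 1 (0.0533 to 0.114), hemf2 whichever was left out, apart from last-actuated replicate 1 (0.0665 to 0.0979), and NADP-MDH without 4 arrays, the exceptions being ground replicate 2 and last-actuated replicate 1 (0.0642 to 0.0785).

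Regulators of transcription and division gave isolated calls. Of 26 bZIP genes, 2 were called higher and 1 lower. Besides BZIP17, bZIP44, a factor of the group translated under sucrose control, was at 6.77, 6.94 and 6.99 in last-actuated, against 6.31, 6.15 and 6.13 in ground arrays (0.70 ± 0.11, adjusted p = 0.00828). HYH, the homolog of the light-signalling factor HY5, fell by 0.62 ± 0.13 (adjusted p = 0.0396). NRPB9A, a subunit gene of RNA polymerase II on a dim probe set, was at 2.93, 2.87 and 2.87 in last-actuated, against 2.27, 2.35 and 2.07 in ground arrays (0.66 ± 0.10, adjusted p = 0.00746). No other of 17 polymerase subunit genes was called. HTB1, a histone H2B gene with close copies, was the only one called of 8 histone genes and fell by 0.64 ± 0.11 (adjusted p = 0.0172), beside a list median of -0.12. BUB3.2, of the spindle checkpoint family, rose by 0.57 ± 0.11 as the only one called of 12 mitotic genes.

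Among cell surface and peptide genes, CLE41, whose peptide keeps vascular stem cells undifferentiated, was at 5.15, 5.37 and 5.50 in last-actuated arrays, against 5.99, 6.03 and 5.85 in ground arrays (-0.62 ± 0.12, adjusted p = 0.0303). Of 17 CLE genes no other was called, and its close relative CLE44 differed by -0.33 ± 0.15. Against first-actuated roots CLE41 was lower by log2 -0.90 (adjusted p = 0.00176). TET2, a tetraspanin membrane protein gene, rose by 0.68 ± 0.14 (adjusted p = 0.0472), the only one called of 12. The calls of bZIP44 and NRPB9A held in every alternative. Without single arrays, HYH, BUB3.2, CLE41 and TET2 each missed the threshold in 5 of 6 omissions and HTB1 in 4. The exceptions were ground replicate 1 for HYH (0.0705 to 0.14) and TET2 (0.0722 to 0.153), last-actuated replicate 1 for BUB3.2 (0.0764 to 0.094) and last-actuated replicate 3 for CLE41 (0.0602 to 0.108). For HTB1 they were ground replicate 1 and last-actuated replicate 2 (0.061 to 0.0707).

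The remaining 21 of the 49 lists had 0 calls by limma. Members with the smallest p in a few of them show the sizes involved. Over all 16722 probe sets, 2174 had an unadjusted p under 0.05, and no list was tested against that share. MCCB, of leucine breakdown, differed by 0.46 ± 0.12 (adjusted p = 0.0928) and 4 of the 6 genes of branched-chain amino acid and lysine breakdown had an unadjusted p under 0.05. GH9C2, of 19 GH9 cellulases, differed by -0.41 ± 0.09 (adjusted p = 0.0568). UBC16, of 16 ubiquitin-conjugating enzymes, differed by -0.41 ± 0.12, and 12 of that family had a negative difference. The cell wall invertase gene cwINV6 differed by 0.33 ± 0.09, the autophagy gene ATG3 by -0.26 ± 0.10, the calmodulin-like gene CML37 by -0.22 ± 0.09, and VPS2.2, of 36 trafficking genes, by 0.52 ± 0.13. XTH18, a dim xyloglucan-modifying enzyme gene, was at 4.09, 2.95 and 2.93 in last-actuated, against 2.49, 2.61 and 2.60 in ground arrays, so 1 array set most of its difference (0.76 ± 0.28, adjusted p = 0.278). The unadjusted counts in other lists were 5 of 41 subtilases and serine carboxypeptidases, 5 of 21 sugar transporters, 4 of 26 cytochromes P450, 4 of 23 basic helix-loop-helix factors, 3 of 14 nitrate and peptide transporters, 3 of 8 class III peroxidases, 3 of 12 starch and sucrose genes, 2 of 25 TBL genes, 2 of 18 RALF-like peptides, 1 of 9 cellulose synthase-like genes, 1 of 13 mitochondrial dehydrogenases and 1 of 31 cytoskeleton genes.

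**Figure D5:**
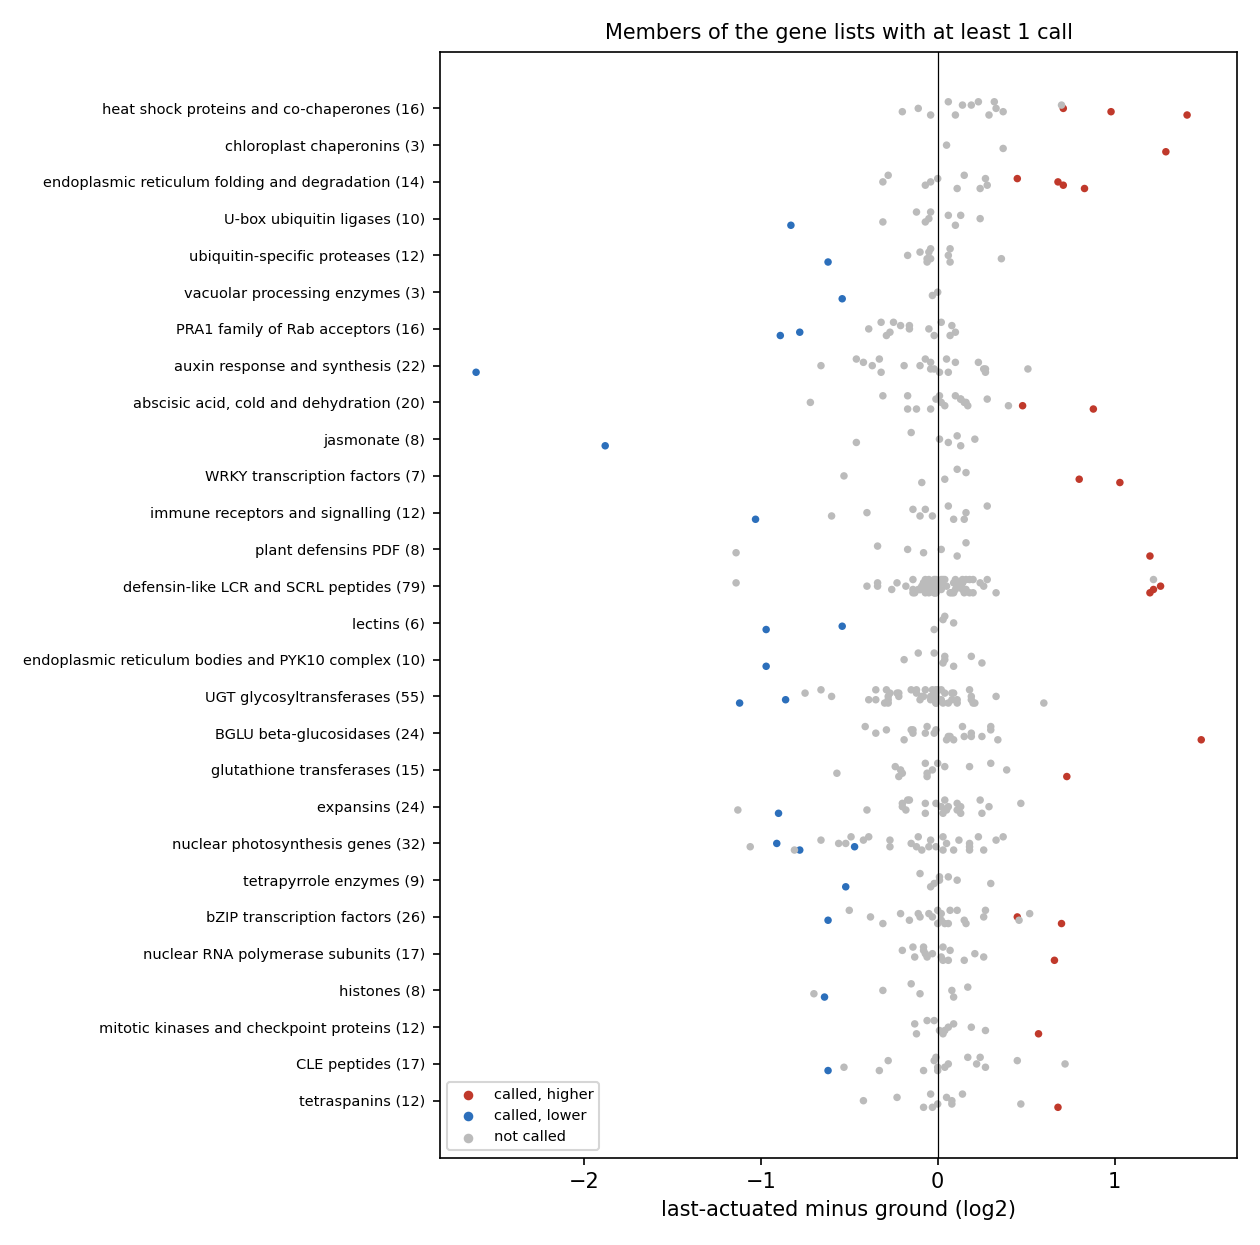
Each row is a gene list with at least 1 call, with its number of measured genes in brackets, and each point a gene at its last-actuated minus ground log2 difference; red and blue points were called higher and lower. The folding lists at the top have calls only to the right of 0, the turnover, secretion and photosynthesis lists only to the left, and most points lie near 0.

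Loci without a symbol made up most of the largest changes, as they did of all probe sets. Of the 16722, 1965 had a gene with a symbol or name. The largest bright increase was that of AT5G53680, at 6.41, 6.78 and 6.62 in last-actuated arrays, against 3.68, 3.76 and 3.77 in ground arrays (2.87 ± 0.23, 7.30-fold, adjusted p = 0.000198). AT1G26240 followed with 2.51 ± 0.31, its ground arrays at 2.50, 3.12 and 2.79 lying in the dim range, and AT3G17400 with 2.29 ± 0.13, its ground arrays also dim at 2.81, 3.11 and 2.77. The other 9 of the 12 largest bright increases lay between 1.49 and 2.19, and all had a ground mean above 3.3. The smallest p-values were those of AT1G52870 (9.35, 9.23 and 9.22 in last-actuated, against 7.21, 7.21 and 6.80 in ground arrays) and AT1G14205 (8.2, 8.18 and 8.11 in last-actuated, against 6.36, 5.96 and 5.98 in ground arrays), with an adjusted p of 4.45e-05 for each. AT1G14205 was 1.41 above its first-actuated level and AT3G17400 1.99 above it (adjusted p = 0.000103 and 4.24e-05), whereas AT5G53680 and AT1G52870 differed by 0.31 and 0.29 without a call.

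Among the largest bright decreases without a symbol were AT2G36690, at 4.93, 4.32 and 4.63 in last-actuated, against 6.33, 6.46 and 6.65 in ground arrays (-1.86 ± 0.20), and AT1G72920 (-1.77 ± 0.24). AT5G18475, AT1G55990, AT3G56290 and AT4G27654 changed by log2 -1.72, -1.54, -1.53 and -1.51. The levels of AT1G55990 were 5.63, 5.21 and 4.93 in last-actuated and 6.94, 6.88 and 6.58 in ground arrays, again without overlap. AT2G36690, AT1G55990 and AT3G56290 were lower than in first-actuated roots too, by log2 -1.59, -1.20 and -1.31 (adjusted p = 0.00114, 0.002 and 0.0043). The call of AT3G49330 (-1.28 ± 0.24) was lost whichever array was left out, apart from ground replicate 3 (0.0619 to 0.0993), and that of AT2G38600 (1.6 ± 0.25) without last-actuated replicate 3 (0.0512).

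Among dim probe sets the largest increase was that of AT1G33500, at 3.75, 3.72 and 3.92 in last-actuated arrays, against 2.68, 2.78 and 2.76 in ground arrays (1.05 ± 0.09, adjusted p = 0.000198), and it was called in every alternative. AT5G35525 and AT3G42870 rose by 0.67 and 0.35, close to the threshold (adjusted p = 0.0493 and 0.0498), and missed it without 4 and 6 of the arrays (0.137 to 0.165 and 0.0821 to 0.153). AT5G35525 was called only when the omitted array was ground replicate 3 or last-actuated replicate 3. The largest dim decreases were AT2G36295, at 2.59, 2.11 and 2.77 in last-actuated, against 4.08, 3.78 and 4.27 in ground arrays (-1.55 ± 0.17), AT1G15260 (-1.35 ± 0.10), AT4G37240 (-1.21 ± 0.22) and AT4G02950 (-1.04 ± 0.15). AT1G15260 stood out by its narrow groups, at 2.47, 2.36 and 2.32 in last-actuated and 3.8, 3.72 and 3.69 in ground arrays (adjusted p = 0.000134). AT4G37240 missed the threshold without ground replicate 3 or last-actuated replicate 2 or 3 (0.0552 to 0.0897). AT4G19870, lower by log2 -0.83, missed it without 4 arrays, the exceptions being ground replicate 3 and last-actuated replicate 1 (0.0502 to 0.0662).

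The 6 called probe sets of highest mean level differed by 0.37 to 0.83. AT3G14200 was at 11.84, 11.93 and 11.95 in last-actuated, against 11.49, 11.56 and 11.55 in ground arrays (0.37 ± 0.08, adjusted p = 0.0487), AT1G30070 rose by 0.46 ± 0.10 and AT5G25450 by 0.45 ± 0.09. These 3 missed the threshold whichever array was left out (0.0791 to 0.153, 0.0597 to 0.133 and 0.0518 to 0.153) and under quantile normalization (0.119, 0.113 and 0.175). AT4G09150 and AT5G12110 rose by 0.53 ± 0.08 and 0.83 ± 0.11 and were called in every alternative, and AT5G47830 rose by 0.57 ± 0.09 and was lost only under quantile normalization (0.0529). All 6 were higher in last-actuated roots and, like all 303 calls, had no overlap.

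The count of calls fell from 303 whichever single array was left out. It was 219, 169 and 171 without last-actuated replicates 1, 2 and 3. Without ground replicates 1, 2 and 3 it was 207, 194 and 202. In the fit of all arrays and in every refit of the same probe sets, 130 were called, 88 higher and 42 lower. Of these, 6 were dim. The naming rule picked 79 called genes, some of them loci not printed here. Of these 79, 43 were called in every alternative that tested them, 36 were lost in at least 1, and 0 reversed. Of the 79, 30 missed the threshold when only the 2 compared groups were fitted, 26 when all probe sets were tested and 35 when at least 1 single array was left out.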

How the data were processed

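RNA of whole roots was hybridised to the Affymetrix AraGene 1.0 ST array, 1 array per root pool. The authors deposited log2 values, and per the submitters' processing notes they used RMA, the oligo package, limma, R 4.0.0 and the TAIR10 build. RMA as usually run sets the arrays to a common distribution, so a shift shared by most transcripts would not be seen. Neither detection calls nor slide or scan records were used here, so a probe set's signal over background is unknown, and the number of arrays limits the precision.

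Of 38408 probe sets, 16722 had exactly 1 gene, 759 several and 20927 none in the platform annotation. Symbols were updated by gene identifier from a RefSeq table of assembly TAIR10.1 (16574 matched, 148 kept the platform symbol). Gene sequences were not used here, and a planned search of promoters was not made. The 148 genes with several probe sets were kept with all of them, and calls differed between sets for 6.

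The 17481 probe sets with at least 1 gene were fitted with limma 3.58.1 in R 4.3.3 (lmFit, eBayes) over all 9 arrays, without a block, and adjusted together by Benjamini-Hochberg. The script was tested on simulated data. Lists are described by counts and medians, with no set test. The naming rule started from called probe sets without overlap. From these it picked the 12 largest increases and decreases of bright sets, 6 of dim sets, and the 6 of smallest p and of highest level. It added up to 4 called members per list (the member of smallest p where none was called) and the measured tissue markers. Some of the loci it picked are not printed here. The genes, lists and comparisons were chosen with earlier results of these data known. Alternatives were a fit of the compared groups only, a replicate block, all probe sets, bright sets only, a trended or robust prior, array centring, quantile normalization, array weights, 1 probe set per gene, another brightness cut and leaving out each array. The members of 1 of the gene lists are not reported here.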

Additional observations from a re-analysis of the deposited data

Results flagged for a closer look

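For 6 named genes the calls against ground had one sign in last-actuated roots and the other in first-actuated roots, and limma also called the difference between these in-flight groups. Both contrasts use the same ground arrays, and the difference does not. PUB24 differed by log2 -1.88 (-0.83 in last-actuated and 1.04 in first-actuated roots, each against ground), EULS3 by -1.30 (-0.54 in last-actuated and 0.76 in first-actuated roots) and AT4G27654 by -2.13 (-1.51 in last-actuated and 0.62 in first-actuated roots). LCR35 differed by 2.26 (1.22 in last-actuated and -1.04 in first-actuated roots), bZIP44 by 1.32 (0.70 in last-actuated and -0.61 in first-actuated roots) and ABR1 by 1.17 (0.48 in last-actuated and -0.69 in first-actuated roots). The adjusted p of these differences was 4.89e-05 for PUB24 and for AT4G27654, 7.62e-05 for EULS3, 0.000481 for LCR35, 0.000112 for bZIP44 and 0.00015 for ABR1. Each in-flight group came from 1 tube, so stage of flight and tube cannot be told apart.

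Probe sets without a gene in the annotation also carried signal. In a fit of the whole table, 248 of 20927 unnamed probe sets were called (1.19%), 122 higher and 126 lower in last-actuated roots, against 185 of the 16722 with 1 gene in the same fit (1.11%).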

How the results depend on the processing

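Of 303 called probe sets in the fit of all arrays, 157 were higher and 146 lower. A fit of the compared groups alone called 209, with 85 lower, 14 dim and 23 list members. Over all probe sets of the table the count was 185, with 79 lower, 176 bright, 9 dim and 22 list members. Leaving out single arrays gave 169 to 219 calls, 104 to 126 higher, 64 to 103 lower, 155 to 209 bright, 10 to 14 dim and 18 to 31 list members. A bright class cut at the 75th percentile held 179 calls and the dim class 124. The counts of all calls stayed within 1.5 times under the other settings: 385 with bright probe sets only, 341 with a trended prior, 346 with array weights, 317 with centred arrays, 296 with a robust prior, 289 with quantile normalization and 303 with 1 probe set per gene. Centring raised the higher share of calls to 59.3%, against 51.8% as deposited. With the replicate block 237 were called. Deviations of same-numbered arrays from their group means correlated at -0.03, -0.12 and 0, and those of other pairs at -0.06 to 0.08. With 3 arrays a group, these values cannot tell whether the numbers mark shared handling. No named call reversed in any of these settings. Of 49 gene lists, 27 had a count that moved by over 1.5 times in at least 1 setting. The number of arrays, 3 a group from 1 tube, limits the precision, and dim probe sets have no known background level.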

Other observations

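A further 6 called genes had a symbol or name and were on no list, and were picked out after their values were seen. SAY1 rose by 1.1 ± 0.11, FaTA, an acyl carrier protein thioesterase gene of plastid fatty acid synthesis, by 0.76 ± 0.14, CUL4, a scaffold gene of ubiquitin ligases, by 0.71 ± 0.08 and APK1A, a protein kinase gene, by 0.66 ± 0.10. EX1, the EXECUTER1 gene of singlet oxygen signalling in plastids, fell by 0.45 ± 0.09 and LSH5 fell by 0.84 ± 0.17. All 6 were bright, with limma adjusted p-values between 0.000513 for SAY1 and 0.0381 for EX1.

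Among 10249 pairs of neighbouring measured genes, both were called in 5. Of single probe sets 1.81% were called, and whether 5 pairs exceed what that share gives was not tested. The direction was shared in 3, namely AT1G14200 and AT1G14205 (0.52 and 2.06), AT4G21105 and AT4G21110 (0.79 and 0.45), and AT5G25440 and AT5G25450 (0.53 and 0.45). It was opposite in 2, AT1G75960 and AT1G75980 (-0.76 and 1.11) and AT3G42860 and AT3G42870 (-0.81 and 0.35).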
